A study of Mus musculus with 26 samples.

Results

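The proteasome and the enzymes that place and remove ubiquitin were followed in mouse bone marrow macrophages that carried or lacked Cox2, an inducible enzyme on the way to prostaglandin E2 (PGE2). A gene belonged to the set when its symbol began with Psma to Psmg, Ube2, Uba followed by a digit or Usp followed by a digit, with Usp18 left out. This rule found 59 genes, read by 77 of the 7244 probes that the authors' tables pair with a symbol, out of 25697 probes on each array. No Uba gene was among them. By role, 5 genes encode the alpha ring and 7 the constitutive beta ring of the 20S core, 4 the ATPases and 7 other subunits or chaperones of the 19S cap, and 5 the immunoproteasome and its activator. A further 2 encode other activators, 14 ubiquitin-conjugating (E2) enzymes and 12 deubiquitinases. The symbol rule also caught Psmc3ip, a meiotic recombination factor, Usp6nl, a Rab GTPase-activating protein, and Psme2b, a copy of Psme2.

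All cells came from the femurs and tibiae of male CD1 mice aged 2 months and were expanded in M-CSF at 100 ng/ml before plating. M-CSF keeps macrophages alive and dividing, and RANKL turns them into osteoclasts, the cells that resorb bone. In experiment 1, cultures ran for 1 day in 3 groups: wild type (WT) with M-CSF alone (n = 4), WT with M-CSF and RANKL (n = 3) and Cox2 knockout (KO) with M-CSF and RANKL (n = 3), the last 2 at 30 ng/ml of each cytokine. The labels and design text give no M-CSF dose for the group without RANKL. In experiment 2, 4 groups of 4 arrays ran for 3 days, all with M-CSF and RANKL: WT, WT with the Cox2 inhibitor NS398 at 0.1 µM, KO, and KO with PGE2 at 1 µM. No RANKL dose is labelled for these 4 groups. The labels do not say how the Cox2 gene was deleted, and no group had KO cells with M-CSF alone. No named probe read the Cox2 gene, so the genotype was not checked against its own transcript. Values are the authors' array intensities, on which background was not subtracted, so that changes of dim genes are understated. The replicates are called biological without naming separate mice, so that p-values measure the spread between these samples.

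Arrays of one group correlated across all probes at 0.9931 to 0.9951 on day 1. On day 3 the correlations ran from 0.9723 to 0.9948 and some arrays of a group lay in pairs, such as WT replicates 4 and 2 (0.9929) and 6 and 3 (0.9903), with no label for these pairs. On day 3 the replicate numbers of 3 of 4 KO arrays with PGE2, 1 of 4 KO arrays, 1 of 4 arrays with NS398 and 0 WT arrays end in an r, which the labels do not explain. The labelled cell type was checked on 8 macrophage markers with a named probe, whose summed intensity on day 1 was 150374 to 164011 in WT with M-CSF, 134690.0 to 137138 in WT after RANKL and 149047 to 156246 in KO. With RANKL in WT 4 of these 8 rose and 3 fell. No marker is at 0, since background was not subtracted. Neutrophil and stromal markers differed between the groups. The summed intensity of 9 neutrophil markers was 10853 to 11552 in WT with M-CSF, 82535 to 84180.5 in WT with RANKL and 42376 to 57783 in KO with RANKL on day 1, and 3 rose and 5 fell with RANKL while 7 rose and 2 fell in KO. The summed intensity of 6 stromal markers was 2059.9 to 2146, 3039 to 3319.7 and 5656 to 6196 in the same groups, and 5 rose and 1 fell in KO. On day 3 the neutrophil sum was 2615 to 3807 in WT, 1476 to 2208 with NS398, 1377 to 1607 in KO and 4707 to 8786 in KO with PGE2. The stromal sum was 1352 to 1700.2, 905 to 955, 1066 to 1155 and 1907 to 2502. A single probe that was not detected reached a mean of 152 to 156 in these groups, so the lowest sums may be mostly background. The lists for B cells (Blnk), T and NK cells (Cd3g), mast cells (Hdc) and megakaryocytes (Cxcl4) had 1 named gene each. Hdc stood at 209 to 247, 1654 to 1821 and 326 to 357 in the 3 day 1 groups, Cxcl4 at 11333 to 16665, 30271 to 41442 and 9849 to 13391, and Blnk at 1958 to 3095, 732 to 981 and 1543 to 1939. Cd3g stood at 182 to 214, 284 to 307 and 195 to 214, where probes not detected reached means of 242, 248 and 247. The summed intensity of 10 osteoclast markers was 12499.9 to 14113, 118871 to 123681 and 71102 to 97515 in these groups, and 8 rose with RANKL in WT and 6 fell in KO. On day 3 it was 70293 to 92182 in WT, 59431 to 75999.6 with NS398, 70709 to 84825 in KO and 63311 to 81564 in KO with PGE2. The day 1 marker counts are to be read against all named genes outside the set. Of those, 33.6% were called higher and 42.2% lower with RANKL in WT, and 40.8% and 28.8% in KO against WT. The part of these cells in the results below was not tested, and a change in the share of a cell type cannot be told apart from a change of RNA per cell.

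The proteasome cuts proteins that carry ubiquitin chains. Its 20S core is a barrel of alpha and beta rings, in which Psmb5, Psmb6 and Psmb7 hold the catalytic sites, and the 19S cap recognises, unfolds and feeds in the substrate. Cells exposed to interferons or inflammatory cytokines build the immunoproteasome, in which Psmb8, Psmb9 and Psmb10 take the places of Psmb5, Psmb6 and Psmb7, and the PA28 ring of Psme1 and Psme2 caps the core. The peptides made by it feed the presentation of antigen on MHC class I. In osteoclast precursors the proteasome also degrades the inhibitor of NF-kappaB once the RANKL receptor signals.

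Promoter sequences are shown for the 2 immunoproteasome genes that lie beside the peptide transporter genes in the MHC, and for the activator gene Psme1, because these genes rose with RANKL and fell in KO together. Those of the constitutive partners Psmb5 and Psmb6 are set beside them. Psmb9, Tap1, Psmb8 and Tap2 follow each other on chromosome 17, and Psme1 and Psme2 lie on either side of Emc9 on chromosome 14. Each sequence runs from 250 bases before to 50 bases after the start of the gene, 5′ to 3′ on the gene's strand, from RefSeq on GRCm38.p6, and has a length of 300 bases. The windows are chr17:34197945-34198244 (plus strand) for Psmb8, chr17:34187281-34187580 (minus strand) for Psmb9, chr14:55578244-55578543 (plus strand) for Psme1, chr14:54617946-54618245 (minus strand) for Psmb5 and chr11:70525107-70525406 (plus strand) for Psmb6. Capitals mark a match to the interferon response core GAAANNGAA or the gamma-activated site TTCNNNGAA in Psmb8, Psmb9 and Psme1, and to the antioxidant response core TGACNNNGC in Psmb5 and Psmb6, on either strand.
Psmb8: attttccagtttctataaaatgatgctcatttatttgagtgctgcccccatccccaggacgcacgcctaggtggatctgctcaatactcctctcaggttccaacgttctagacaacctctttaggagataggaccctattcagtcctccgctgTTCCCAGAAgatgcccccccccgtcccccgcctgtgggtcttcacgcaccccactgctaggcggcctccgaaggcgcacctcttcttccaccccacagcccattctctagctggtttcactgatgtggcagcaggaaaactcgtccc
Psmb9: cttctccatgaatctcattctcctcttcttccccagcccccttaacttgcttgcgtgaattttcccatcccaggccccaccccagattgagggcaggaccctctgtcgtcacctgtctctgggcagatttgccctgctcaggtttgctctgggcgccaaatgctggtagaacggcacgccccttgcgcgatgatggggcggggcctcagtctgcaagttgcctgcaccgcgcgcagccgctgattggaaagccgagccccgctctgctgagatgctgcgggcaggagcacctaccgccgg
Psme1: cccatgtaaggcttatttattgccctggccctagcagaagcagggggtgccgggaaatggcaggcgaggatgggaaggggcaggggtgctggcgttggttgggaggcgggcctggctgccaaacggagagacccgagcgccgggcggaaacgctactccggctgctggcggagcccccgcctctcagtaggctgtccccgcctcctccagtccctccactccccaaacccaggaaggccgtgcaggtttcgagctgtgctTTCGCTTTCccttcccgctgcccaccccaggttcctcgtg
Psmb5: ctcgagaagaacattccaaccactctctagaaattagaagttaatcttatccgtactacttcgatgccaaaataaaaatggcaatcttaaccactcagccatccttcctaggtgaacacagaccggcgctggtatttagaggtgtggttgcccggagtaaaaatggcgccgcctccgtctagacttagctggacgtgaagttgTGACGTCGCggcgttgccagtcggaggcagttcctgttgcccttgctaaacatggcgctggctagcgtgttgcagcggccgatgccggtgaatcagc
Psmb6: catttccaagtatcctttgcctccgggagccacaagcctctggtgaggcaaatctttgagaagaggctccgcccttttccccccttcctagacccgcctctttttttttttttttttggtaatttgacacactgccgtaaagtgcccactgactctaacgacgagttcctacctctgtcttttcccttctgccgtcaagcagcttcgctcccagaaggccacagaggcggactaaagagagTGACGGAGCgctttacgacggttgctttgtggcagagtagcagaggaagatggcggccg
The Psmb8 window held the gamma-activated site, the Psme1 window the interferon response core just after the start, and the Psmb9 window neither. Psmb10 and Psme2, whose windows are not shown, also held neither. The interferon response core was present in the constitutive Psmb3, Psmb4 and Psmd4 as well. Over 49 of 59 genes found in the table, the interferon response core was present in 4 (8.16%), against 8.56% of all 32851 promoters of that length. The gamma-activated site was present in 1 of 49 (2.04%), the one in Psmb8, against 8.3% of all promoters. The antioxidant response core, the kind of site through which NRF1 and NRF2 act on proteasome genes, was present in 10 (20.4%) against 12.4%. The cell cycle element TTTGAA was in 3 (6.12%) against 17.9%, and the CCAAT box CCAAT in 14 (28.6%) against 37.4%. A gene counted when any of its windows held the motif, whereas the shares of all promoters count single windows. Some genes had 2 or 3 windows, among them Ube2e2, Ube2f and Ube2q2 with the antioxidant core, which raises the shares of the set. The motifs can overlap, and a match describes letters in the window and not a bound site.

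RANKL against M-CSF alone in WT cells on day 1 asks what the osteoclast-inducing cytokine does to the degradation machinery within a day. All 5 immunoproteasome genes rose, by 2.41-fold to 4.49-fold. Of the 59 genes, 31 rose and 9 fell at an adjusted p under 0.05 (limma, Benjamini-Hochberg over 17211 probes), and 19 did not pass. These 40 are 67.8% of the set, while 75.8% of other named genes (33.6% higher, 42.2% lower) and 37.7% of all probes tested (17% and 20.7%) were called. Names exist only for probes that the authors listed as differing in at least one comparison, which raises the share called among named genes. The median log2 change was 0.27 over the 59 genes, -0.12 over other named genes and -0.02 over all probes.

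Psmb8, the beta5i subunit with chymotrypsin-like activity, had intensities, here and below in rising order, of 756, 787, 849 and 903 in WT on M-CSF alone, 3171, 3553 and 4209 in WT with RANKL and 686, 789.7 and 826 in KO with RANKL. The WT cultures with RANKL stood above all others, and the KO cultures overlapped with those on M-CSF alone. Psmb8 thus rose 4.4-fold with RANKL (log2 change 2.14, SE 0.10, adjusted p = 6.31e-13) and was lower in KO than in WT under RANKL (log2 change -2.24, SE 0.11, adjusted p = 1.71e-12). Psmb9, the beta1i subunit, gave 2243, 2519, 2715 and 2729 with M-CSF, 11106, 11506 and 11689 with RANKL and 2552, 2617 and 2860.3 in KO with RANKL. It rose by 2.17 on the log2 scale (SE 0.09, adjusted p = 4.75e-14) and fell by 2.10 in KO (SE 0.10, adjusted p = 4.62e-13). Psmb10, the beta2i subunit, gave 5562, 6122, 6191 and 7350.1, 23489.5, 23781 and 25434 and 6614, 7649.8 and 7996 in these groups. Its WT cultures with RANKL again lay apart, with a rise of 1.95 (adjusted p = 1.4e-12) and a KO difference of -1.71 (adjusted p = 5.74e-11). A second Psmb10 probe rose by 1.99 and fell by 1.57 in the same comparisons.

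The PA28 activator moved with them. Psme1, its alpha subunit, gave 8956, 9458, 10054 and 10348 with M-CSF, 23781, 24714 and 24877 with RANKL and 8617, 9113 and 9628 in KO with RANKL, a rise of 1.34 (adjusted p = 5.06e-11) and a KO difference of -1.42 (adjusted p = 8.62e-11). Psme2, the beta subunit, gave 1361, 1685, 1689 and 1699, 3747, 3871 and 3946 and 1489, 1554 and 1879.9, with log2 changes of 1.27 (adjusted p = 1.82e-09) and -1.24 (adjusted p = 1.08e-08). For both genes the groups with and without RANKL in WT did not overlap, nor did KO and WT with RANKL. The probe named Psme2b changed by 1.79 (adjusted p = 4.43e-10) and -1.76 (adjusted p = 2.6e-09). Psme2b is a near-identical copy, and whether its probe also reads Psme2 was not tested. The other activators did not follow: Psme3, the nuclear PA28 gamma subunit, changed by -0.14 with RANKL (adjusted p = 0.199) and Psme4, the PA200 cap, by -0.07 (adjusted p = 0.599).

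**Figure D1:**
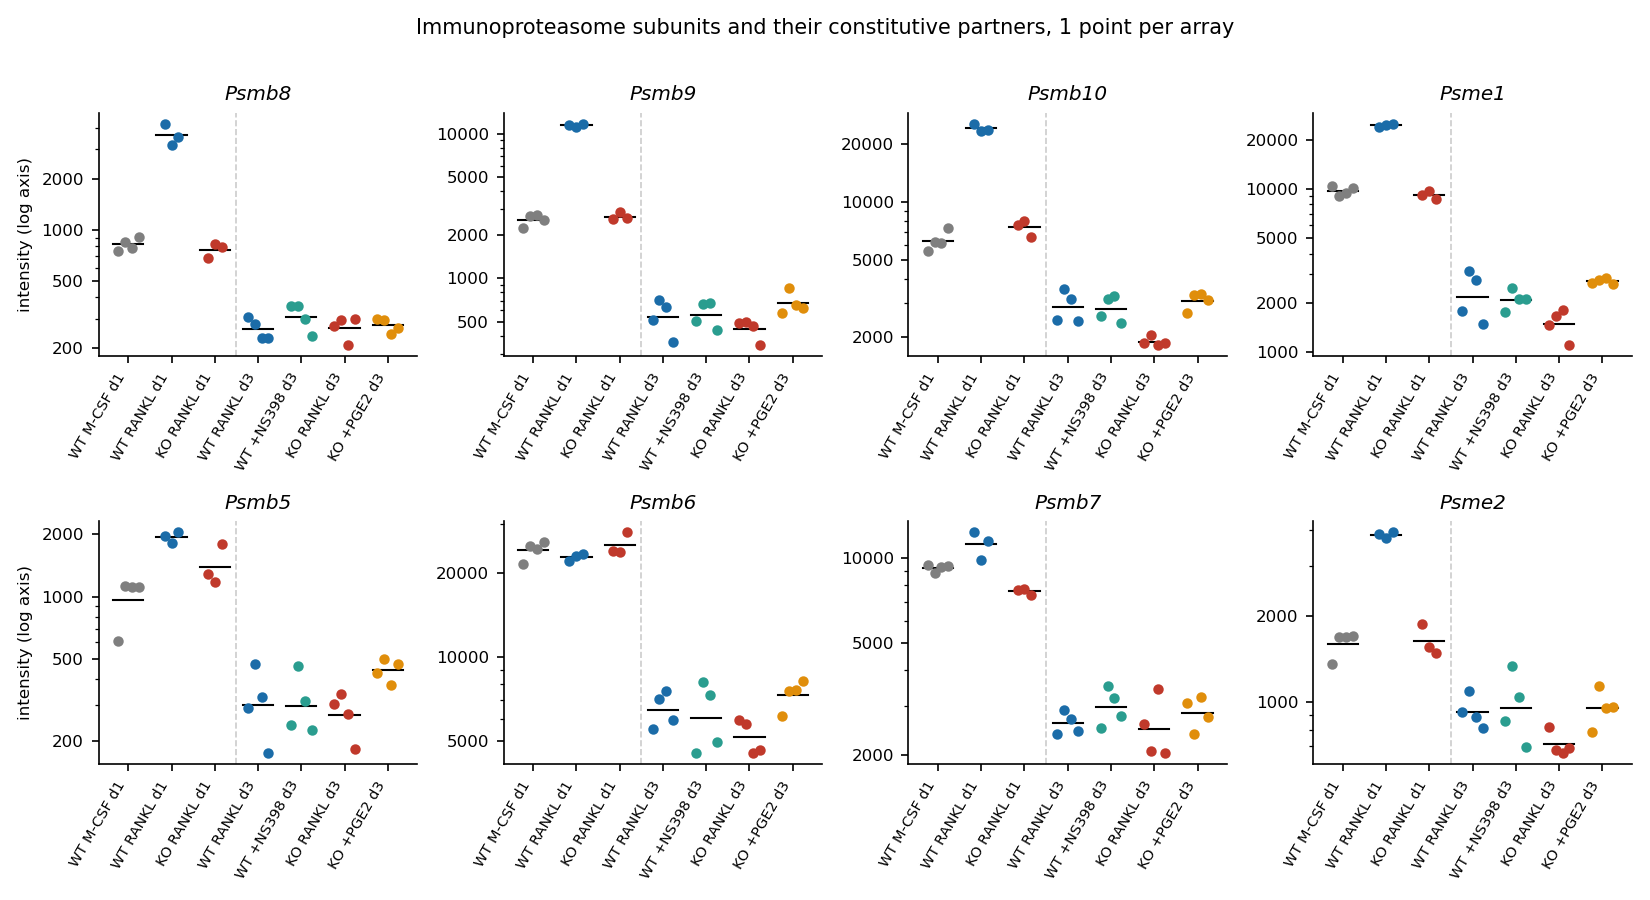
Intensity (log axis) of 5 immunoproteasome genes and the constitutive catalytic genes Psmb5, Psmb6 and Psmb7 in 7 groups, with 1 point per array and a line at the geometric mean; the dashed line separates the separately normalised experiments. WT cultures with RANKL on day 1 lie above both other day 1 groups for each immunoproteasome gene, and for Psmb6 the WT groups with and without RANKL overlap.

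The catalytic subunits that they replace gave smaller changes. Psmb5, the constitutive chymotrypsin-like subunit, gave 612, 1106, 1109 and 1121 with M-CSF, 1822, 1975 and 2054 with RANKL and 1175, 1281 and 1805 in KO, and rose by 1.02 with RANKL (adjusted p = 5.67e-05). The lowest M-CSF culture, replicate 6, stood apart, and without it the rise was 0.81. Psmb6, the constitutive caspase-like subunit, gave 21542, 24435, 24937 and 25767, 22137, 23107 and 23421 and 23781, 24010.2 and 28059, which differed by -0.08 (adjusted p = 0.577, 95% interval -0.27 to 0.12) and by 0.14 in KO (adjusted p = 0.314). Psmb7, the constitutive trypsin-like subunit, gave 8872, 9285, 9376 and 9437, 9808, 11506 and 12359 and 7421, 7701 and 7785. It rose by 0.27 (adjusted p = 0.0197), a call that was lost without WT RANKL replicate 12 (adjusted p = 0.141) or 11 (adjusted p = 0.0772), and fell by 0.55 in KO (adjusted p = 0.000112). All 3 Psmb7 probes were called higher with RANKL, at 0.27 to 0.64, and lower in KO, at -0.57 to -0.48. The log2 gap between each pair of probes was compared within arrays, where its change and not its size has meaning. The gap of Psmb9 to Psmb6 went from -3.24 ± 0.08 (SD, n = 4) to -1.0 ± 0.06 (SD, n = 3) with RANKL and stood at -3.24 ± 0.18 (SD, n = 3) in KO. The gap of Psmb10 to Psmb7 went from -0.56 ± 0.17 (SD, n = 4) to 1.12 ± 0.12 (SD, n = 3) and stood at -0.05 ± 0.11 (SD, n = 3) in KO, above its M-CSF level by 0.51. The gap of Psmb8 to Psmb5 went from -0.22 ± 0.36 (SD, n = 4) to 0.89 ± 0.17 (SD, n = 3) and stood at -0.87 ± 0.34 (SD, n = 3) in KO, below its M-CSF level by 0.65. In KO the gaps thus lay near, above and below the M-CSF level in the 3 pairs, on 1 probe per gene. The size of the second depends on the probe, as the 3 Psmb7 probes differed by -0.28 to 0.16 between KO and M-CSF alone. In M-CSF replicate 6, low for Psmb5, the gap of Psmb8 to Psmb5 was 0.30, against -0.50 to -0.29 in the other M-CSF arrays. The exact permutation p was 0.0286 for the first 2 pairs with RANKL, the smallest that 3 against 4 arrays allow, and 0.0571 for Psmb8 and Psmb5 (two-sided). For KO against WT it was 0.1 in each pair, the smallest that 3 against 3 allow. For KO with RANKL against M-CSF alone it was 0.0286 for Psmb8 and Psmb5 and for Psmb10 and Psmb7, and 0.971 for Psmb9 and Psmb6. Adjusted over 24 such tests, no p was under 0.114.

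Most constitutive subunits rose with RANKL by less. The 23 genes of the 20S core and 19S cap include the assembly chaperones Psmd5 and Psmd10. Of these 23 genes 17 rose, 1 fell and 5 did not pass, with a median log2 change of 0.30. The calls cover 78.3% of the 23, against 75.8% of other named genes (33.6% higher, 42.2% lower). All 5 alpha ring genes rose, from 0.25 for Psma4 to 0.88 for Psma7. Psma7, the alpha4 subunit, gave 6911, 7311, 7453 and 7884 with M-CSF, 13272, 13536 and 14064 with RANKL and 6937, 7406 and 7778 in KO, so that WT cultures with RANKL lay above both other groups (adjusted p = 2.77e-08 for RANKL and 1.05e-07 for KO). In the beta ring 6 of 7 rose, among them Psmb3 by 0.73 and Psmb2 by 0.65, and of 4 ATPases 3 rose, by 0.28 to 0.50. In the 19S cap Psmd10, known as gankyrin and a chaperone of cap assembly, gave 3358, 3521, 3550.4 and 3654 with M-CSF, 8009, 8242 and 8625 with RANKL and 4558, 4703 and 4717 in KO. It rose by 1.24 (adjusted p = 7.06e-11), on each of 3 probes, and fell by 0.83 in KO (adjusted p = 1.39e-07). Psmd1, the large Rpn2 scaffold subunit, went the other way and fell by 0.58 (adjusted p = 2.35e-05), from 1683, 1927, 1934 and 1994 to 1207, 1222 and 1341.

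KO against WT, both with RANKL for 1 day, asks which of these levels depend on Cox2. The 5 immunoproteasome genes fell, and of the 59 genes 10 were higher and 30 lower, with 19 not passing. Among other named genes 40.8% were higher and 28.8% lower (69.6% in either direction), and among all probes 18.9% and 14.9% (33.8%). The median log2 change was -0.25 over the 59 genes and 0.13 over other named genes. Of the 23 genes of the core and cap, chaperones included, 16 fell and 1 rose, with a median of -0.35. Those that fell included Psma5 (-0.66), Psmc5 (-0.57), the assembly chaperone Psmd5 (-0.59) and the ubiquitin receptor Psmd4 (-0.35), and Psmd1 rose by 0.53 (adjusted p = 0.000205). Psmb5 was called lower at -0.48 (adjusted p = 0.0494), and this call was lost in 6 of 10 alternatives, with adjusted p up to 0.216, 5 of them the omission of KO replicate 20 or 19 or WT replicate 12, 10 or 11. These values share the WT arrays with RANKL with the comparison above, so the 2 sets of changes are not independent of each other.

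The third pair of day 1 groups, KO with RANKL against WT with M-CSF alone, differs in genotype and in RANKL at once. None of the 5 immunoproteasome genes was called, and 1 of them had an unadjusted p under 0.05. The differences were -0.10 for Psmb8 (95% interval -0.32 to 0.11), 0.07 for Psmb9 (-0.12 to 0.26), 0.24 for Psmb10 (0.03 to 0.45), -0.09 for Psme1 (-0.27 to 0.09) and 0.03 for Psme2 (-0.18 to 0.24), all on the log2 scale. The second Psmb10 probe was called higher, at 0.42 (adjusted p = 0.00192). Over the 59 genes 4 were higher and 10 lower, against 15.4% and 15.8% of other named genes (31.2% in either direction) and 7.24% and 8.47% of all probes (15.7%), and the median was 0.03. Psmd10 remained above the M-CSF level in KO by 0.40 (adjusted p = 0.00108), though 1 of its 3 probes did not pass, and Psmb5 by 0.54 (adjusted p = 0.0358). The Psmb5 call was lost without M-CSF replicate 6 (0.33, adjusted p = 0.09), and without KO replicate 20 (adjusted p = 0.0544) or 21 (adjusted p = 0.243). The ATPase Psmc5 lay below the M-CSF level by 0.45 (adjusted p = 0.00329). Psmb7 was called lower at -0.28 (adjusted p = 0.0411), which was lost in 8 of 11 alternatives (adjusted p up to 0.145). Its 3 probes differed in call, at -0.28 to 0.16.

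**Figure D2:**
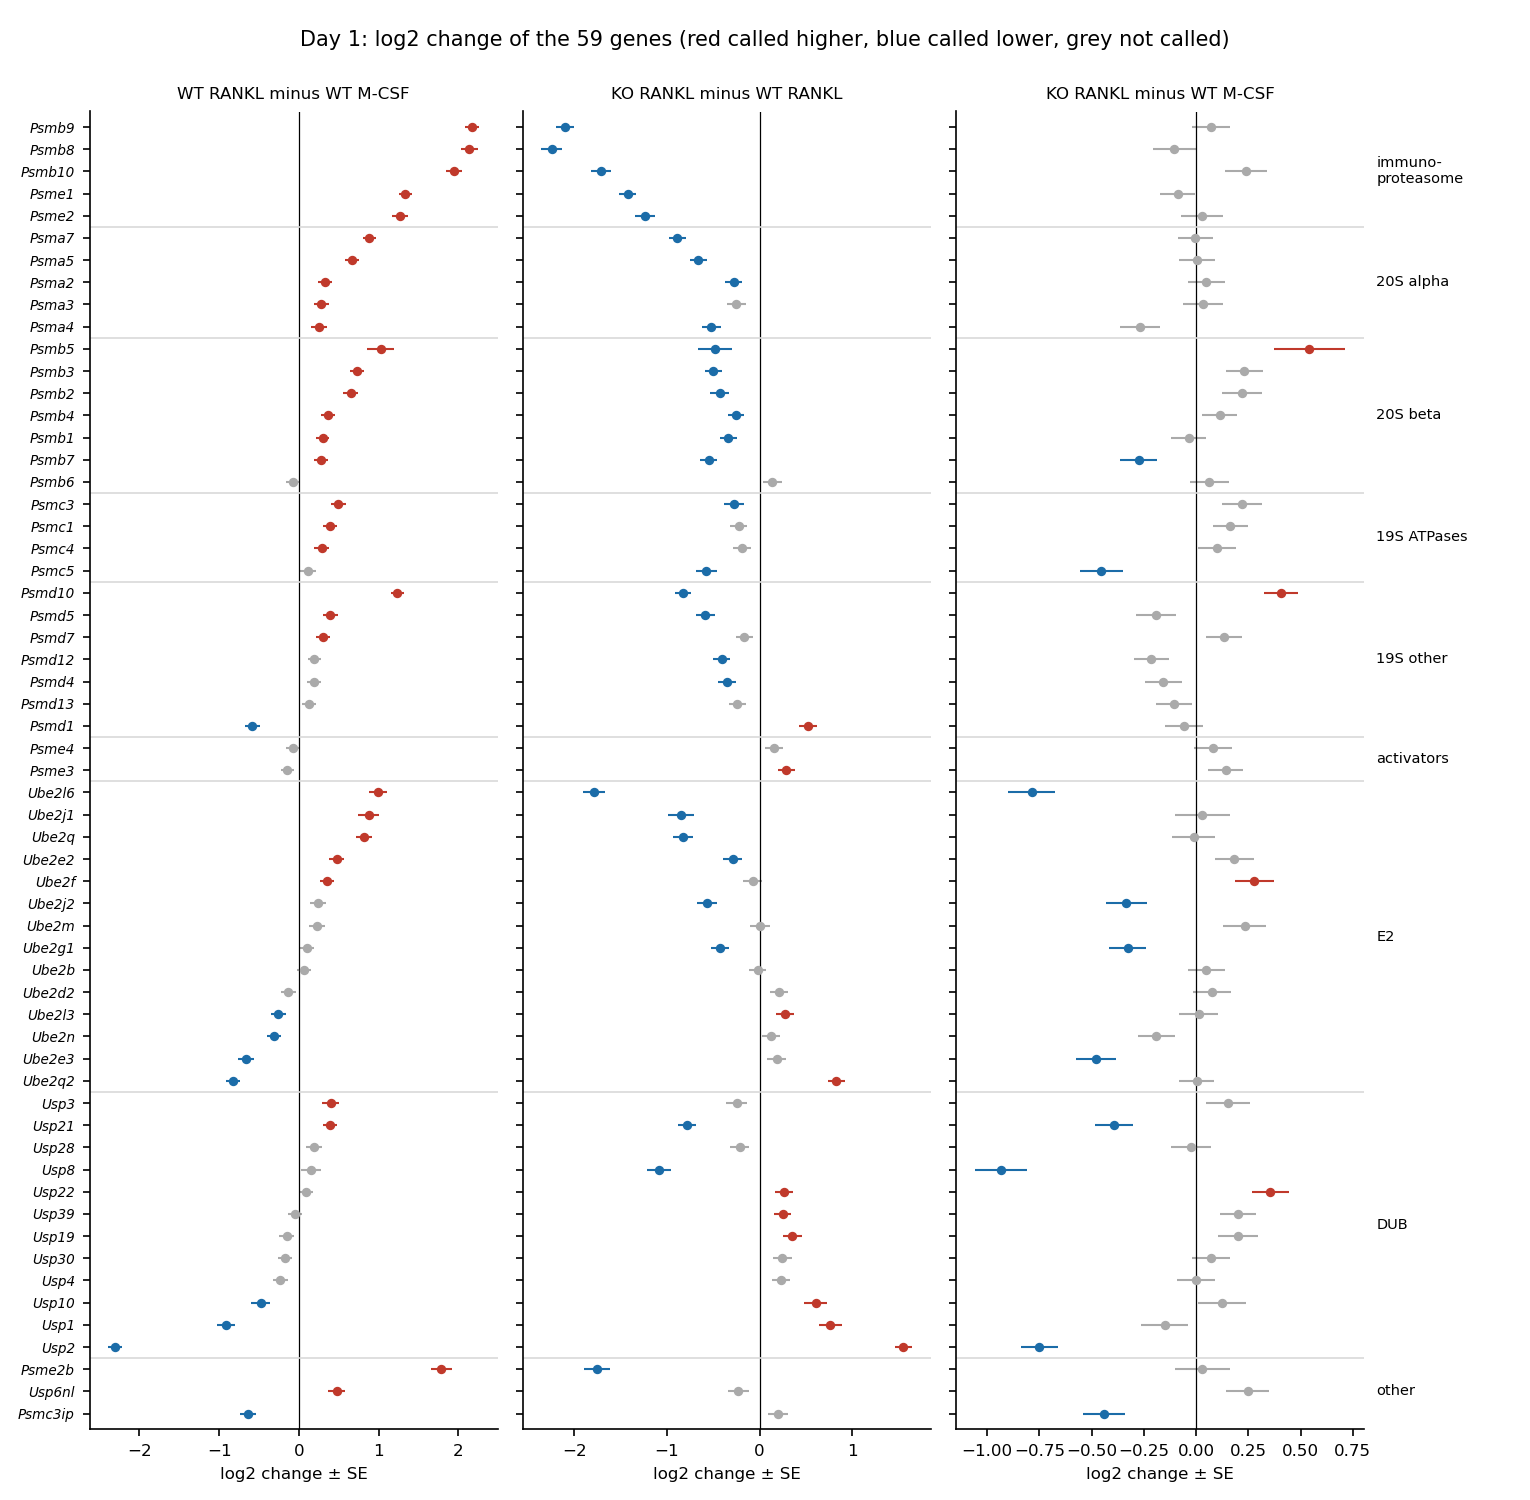
Log2 change ± SE of the 59 genes, 1 probe per gene, in 3 comparisons of day 1, grouped by role; red was called higher, blue lower and grey not called, and the horizontal scales differ between panels. The immunoproteasome genes lie between 1.27 and 2.17 with RANKL, between -2.24 and -1.24 in KO against WT, and near 0 in KO with RANKL against M-CSF alone.

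Among the E2 enzymes, which hand ubiquitin or a ubiquitin-like protein to the substrate, 5 rose and 4 fell with RANKL out of 14, and 2 rose and 6 fell in KO. These are 64.3% and 57.1% of them, against 75.8% (33.6% higher, 42.2% lower) and 69.6% (40.8% higher, 28.8% lower) of other named genes. Ube2l6, the E2 of the interferon-induced modifier ISG15, gave 633, 729, 747 and 873 with M-CSF, 1314, 1514 and 1623 with RANKL and 373, 459 and 461 in KO with RANKL. All 3 groups stood apart, and the KO cultures were the lowest. It rose by 1.00 with RANKL (adjusted p = 3.03e-07), was lower by 1.78 in KO than in WT under RANKL (adjusted p = 1.82e-10), and lay 0.79 below M-CSF alone (adjusted p = 2.79e-05). Ube2j1, an E2 of degradation at the endoplasmic reticulum, rose by 0.88 (adjusted p = 1.44e-05) and was lower by 0.85 in KO (adjusted p = 6.27e-05), and Ube2q changed by 0.82 (adjusted p = 1.64e-06) and -0.83 (adjusted p = 4.53e-06).

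Ube2q2 fell with RANKL. Its intensities were 1943, 1963, 2033 and 2085 with M-CSF, 1057, 1141 and 1199 with RANKL and 1936, 2001 and 2099 in KO with RANKL, so that only the WT cultures with RANKL were low, with changes of -0.83 (adjusted p = 6.25e-08) and 0.83 (adjusted p = 2.28e-07). Ube2e3 fell by 0.66 with RANKL (adjusted p = 8.59e-06) and was also lower in KO with RANKL than with M-CSF alone, by 0.48 (adjusted p = 0.0011). Ube2n, which builds lysine 63 chains in NF-kappaB signalling, fell by 0.32 (adjusted p = 0.00731), and did not pass without WT RANKL replicate 11 (adjusted p = 0.0709). Ube2l3, a partner of HECT-type ligases, fell by 0.26 with RANKL and was higher by 0.27 in KO, with calls lost in 5 of 11 and 6 of 10 alternatives (adjusted p up to 0.211 and 0.216). Ube2j2 and Ube2g1 were lower in KO than in WT, both on RANKL (-0.57 and -0.43) and than M-CSF alone (-0.33 and -0.33), the latter calls being lost in 4 of 11 and 2 of 11 alternatives. Ube2f, an E2 of the modifier NEDD8, was higher by 0.28 in the last comparison, a call lost in 8 of 11.

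Of 12 deubiquitinases 2 rose and 3 fell with RANKL, and 6 rose and 2 fell in KO against WT. These are 41.7% and 66.7% of them. Among other named genes 75.8% (33.6% higher, 42.2% lower) and 69.6% (40.8% higher, 28.8% lower) were called. Usp2, which removes ubiquitin from cell cycle regulators such as cyclin D1 in human cells, had the largest fall of the 59 genes with RANKL and gave 1089, 1138, 1217 and 1226 with M-CSF, 219, 229 and 264 with RANKL and 683, 687 and 710.1 in KO with RANKL. The 3 groups did not overlap, and KO lay between the WT groups. With RANKL the Usp2 signal in WT was not above background by the authors' detection p-value (0.0739), so Usp2 was at least 4.6-fold lower with RANKL (adjusted p = 1.39e-14) and at least 2.74-fold higher in KO than in WT (adjusted p = 4.08e-11). These bounds give each WT array with RANKL the lowest mean intensity among probes detected in that group (248), or the probe's own value where higher, since detection p-values exist per group. Usp2 in KO with RANKL was lower than with M-CSF alone by 0.75 on the log2 scale (adjusted p = 2.59e-06). Usp8, which sorts receptors at endosomes, gave 403, 463, 479 and 577, 429, 531 and 647 and 239, 246 and 263, so the KO cultures alone were low. It differed by 0.15 with RANKL in WT (adjusted p = 0.396), by -1.08 between KO and WT (adjusted p = 1.58e-06) and by -0.93 between KO with RANKL and M-CSF alone (adjusted p = 1.32e-05). In KO its signal was barely above background by the authors' detection p-value (0.0451), so the last 2 differences may be understated. The second Usp8 probe was not above background in KO by that measure and was called lower in the same 2 comparisons.

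Usp21, which acts on histone H2A and on signalling kinases, gave 816, 820.2, 891 and 914 with M-CSF, 1018, 1118 and 1259 with RANKL and 633, 650.3 and 681 in KO with RANKL. As with Ube2l6, the WT cultures with RANKL were the highest and the KO cultures the lowest, with changes of 0.39 (adjusted p = 0.00153), -0.78 (adjusted p = 1.65e-06) and -0.39 (adjusted p = 0.00413) in the 3 comparisons. Usp10, a p53 deubiquitinase, fell by 0.48 with RANKL (adjusted p = 0.00194) and was higher by 0.60 in KO (adjusted p = 0.000519). Usp1, which acts in DNA repair, fell by 0.91 with RANKL on its brighter probe (adjusted p = 1.27e-06) but changed by -0.08 on the other (adjusted p = 0.6), and the 2 probes also differed in KO, at 0.76 and -0.29. Usp22, the deubiquitinase of the SAGA complex, was higher in KO with RANKL than with M-CSF alone by 0.36 (adjusted p = 0.00803), which did not pass without KO replicate 20 (adjusted p = 0.0502) or 21 (adjusted p = 0.0564). Usp19, at 0.35, lost its call in KO against WT without WT replicate 10 (adjusted p = 0.0638). The smaller rises in KO against WT of Psme3 (0.29), Usp22 (0.26) and the splicing factor Usp39 (0.25) were lost in 5 of 10, 8 of 10 and 8 of 10 alternatives. Psmc3ip fell by 0.64 with RANKL (adjusted p = 2.85e-05) and was lower by 0.44 in KO with RANKL than with M-CSF (adjusted p = 0.0037).

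**Figure D3:**
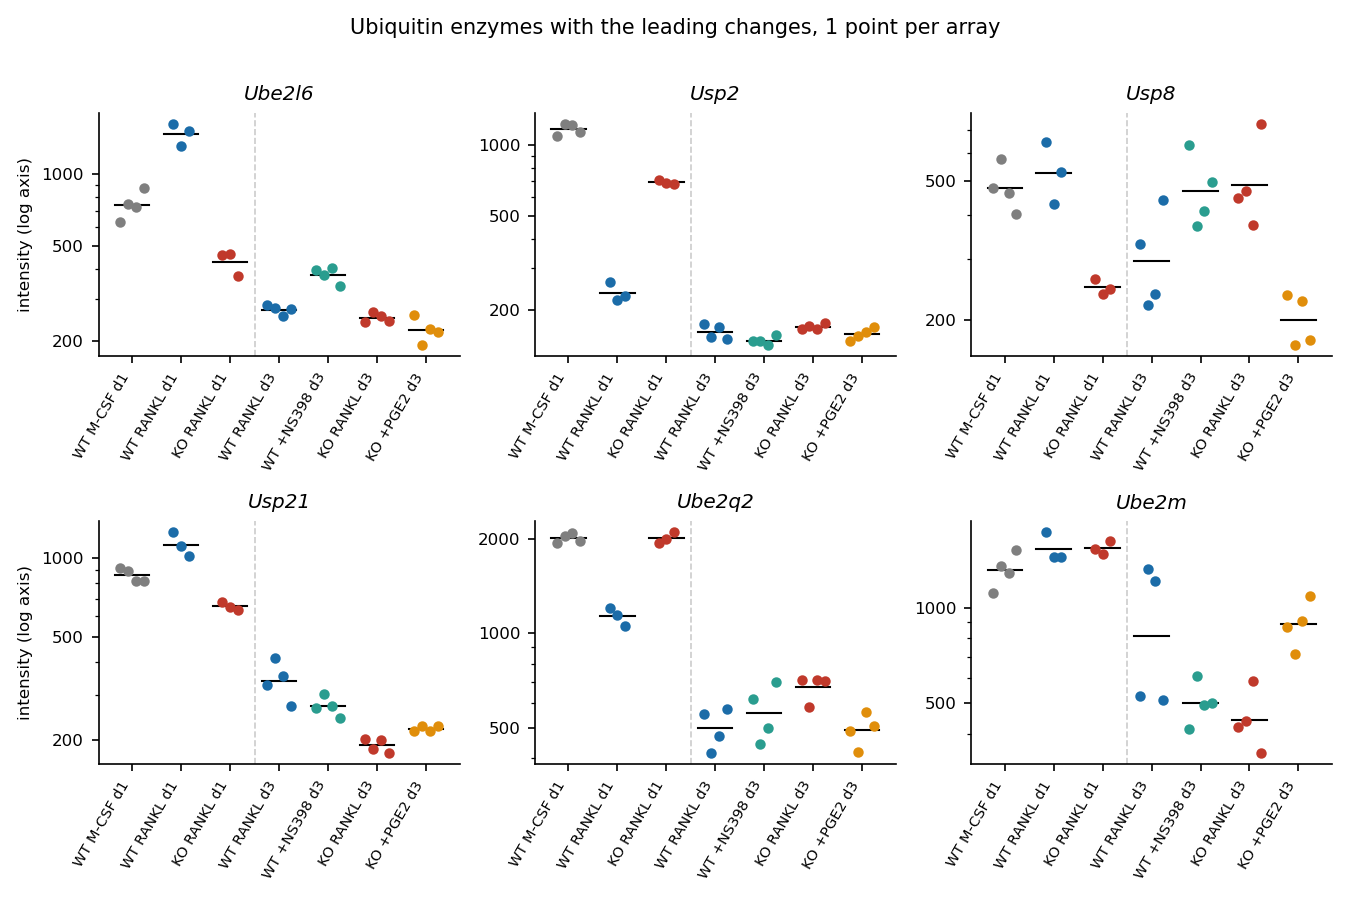
Intensity (log axis) of the E2 enzymes Ube2l6, Ube2q2 and Ube2m and the deubiquitinases Usp2, Usp8 and Usp21 in 7 groups, with 1 point per array, a line at the geometric mean and a dashed line between the separately normalised experiments. Among the day 1 groups Usp2 is lowest and Ube2l6 highest in WT with RANKL, and the day 3 WT arrays of Ube2m form 2 pairs.

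Genes that work beside the set were read from lists. Of 11 genes of MHC class I antigen processing, 9 rose and 0 fell with RANKL in WT, with a median of 1.67, and 0 rose and 10 fell in KO. Tap1 and Tap2, the peptide transporter genes between and beside Psmb9 and Psmb8, rose by 1.80 and 2.02 with RANKL and changed by -1.80 and -1.24 in KO. Of 10 interferon response and ISG15 genes 7 rose and 2 fell with RANKL, and 1 rose and 8 fell in KO. Of 6 further genes of the 26S proteasome and its regulators, 5 rose and 1 fell with RANKL, and 0 rose and 5 fell in KO. Among these Nfe2l1 and Nfe2l2, the genes of NRF1 and NRF2, rose by 0.24 (adjusted p = 0.0496) and 0.74 (adjusted p = 9.11e-06). Ubiquitin genes and shuttle factors gave 2 higher and 0 lower of 7 with RANKL, SUMO and NEDD8 pathway genes 1 higher and 4 lower of 11, and ligases of NF-kappaB and osteoclast signalling 4 higher and 4 lower of 14. Of 12 mitotic and S phase genes 1 rose and 11 fell with RANKL, and 5 rose and 1 fell in KO. Of other named genes, as given above, 33.6% were higher and 42.2% lower with RANKL, and 40.8% and 28.8% in KO, which are the levels to read these counts against.

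On day 3 fewer genes were called. KO against WT, both with RANKL for 3 days, called 0 of the 59 genes higher and 2 lower in limma, against 8.8% and 7.57% of other named genes (16.4% in either direction) and 3.43% and 2.94% of all probes (6.37%). With array weights the same model called 5 and 7, and without WT replicate 3 it called 3 and 5. At an unadjusted p under 0.05, 8 were higher and 11 lower. No constitutive subunit was called, and the median over the 59 genes was -0.07. Usp21 gave 270.5, 327, 353 and 413 in WT and 179, 186, 202 and 202 in KO, without overlap, and fell by 0.81 (SE 0.10, adjusted p = 9.19e-05). Psmb10 gave 2424, 2447, 3128 and 3524 in WT and 1814, 1848, 1850.4 and 2033 in KO, also without overlap, and fell by 0.59 (SE 0.13, adjusted p = 0.0099), while its second probe changed by -0.32 (adjusted p = 0.583). The other immunoproteasome genes overlapped between the groups, at 0.03 for Psmb8 (adjusted p = 0.95), -0.27 for Psmb9 (adjusted p = 0.562), -0.56 for Psme1 (adjusted p = 0.127) and -0.38 for Psme2 (adjusted p = 0.227). For Psmb8 the intensities were 230.0, 232, 279 and 306 in WT and 209.9, 271, 294 and 297 in KO, with a 95% interval of the log2 difference of -0.27 to 0.33. Psmb8 has no detection p-value on day 3, where probes not detected reached means of 152 to 156. Its day 3 differences, here and below, may therefore be understated. The constitutive partners Psmb5, Psmb6 and Psmb7 changed by -0.16, -0.32 and -0.07 and did not pass. The experiments were normalised separately, so the size of the KO difference on day 1 and on day 3 was not tested against each other.

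NS398 blocks Cox2 in WT cells, and its comparison with untreated WT cells asks whether the inhibitor does what the knockout does. It called 1 gene higher and 1 lower, against 7.41% and 7.5% of other named genes (14.9% in either direction) and 2.97% of all probes each way (5.94% in all), and the median was -0.01. Ube2l6 gave 253, 272, 273 and 283 in WT and 339, 378, 395 and 404 with NS398, without overlap, and rose by 0.49 (adjusted p = 0.00152). In KO it gave 241, 241, 254 and 264, which was 0.60 below NS398 (adjusted p = 0.00114). Usp30, a deubiquitinase of the mitochondrial surface that is named here after its value was seen, gave 297, 364, 369.5 and 376 in WT and 248, 261, 265 and 300.0 with NS398 and fell by 0.39 (adjusted p = 0.0141), a call lost when WT replicate 4 or 2 or NS398 replicate 18 was left out, after which 0 genes were lower. None of the 5 immunoproteasome genes was called and none had an unadjusted p under 0.05, with differences from -0.06 for Psme1 (95% interval -0.48 to 0.37) to 0.24 for Psmb8 (-0.06 to 0.55). Psmb10, which was lower in KO, differed by -0.02 with NS398 (-0.30 to 0.25), and by -0.57 between KO and NS398 (adjusted p = 0.0579). Its second probe differed by 0.37 with NS398 (-0.16 to 0.90) and by -0.69 between KO and NS398 (adjusted p = 0.39). Usp21 gave 244, 267, 272 and 301 with NS398 and changed by -0.32 (adjusted p = 0.0919), and KO lay 0.49 below NS398 (adjusted p = 0.0337). KO against NS398 called 1 gene higher, Usp28 at 0.41 (adjusted p = 0.0449), and 2 lower, Ube2l6 and Usp21, against 0.983% and 0.93% of other named genes (1.91% in either direction) and 0.369% of all probes each way (0.738% in all). Usp28, which stabilises MYC in human cells, and Usp21 each lost this call in 7 of 13 alternatives (adjusted p up to 0.194 and 0.144), 6 and 7 of them the omission of 1 NS398 or KO array.

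PGE2 added to KO cells asks whether the missing prostaglandin restores the levels. With PGE2 8 genes rose and 10 fell, against 15% and 16.9% of other named genes (32% in either direction) and 6.04% and 7.47% of all probes (13.5%), with a median of 0.17. Of the immunoproteasome genes Psmb10 and Psme1 rose. Psmb10 gave 1814, 1848, 1850.4 and 2033 in KO and 2644, 3106, 3279 and 3348 with PGE2, and rose by 0.71 (adjusted p = 0.00167), with 0.57 on the second probe (adjusted p = 0.16). Psme1 gave 1103, 1452, 1653 and 1812 and 2591, 2637, 2748 and 2833, and rose by 0.87 (adjusted p = 0.00839), with 0.43 on the second probe (adjusted p = 0.0601). Neither gene overlapped between the groups on its brighter probe. Psmb9 gave 345, 465, 492 and 497 and 576, 626, 649 and 853, which did not overlap either, yet missed the threshold (log2 change 0.59, SE 0.20, adjusted p = 0.0646). Psme2 differed by 0.42 (adjusted p = 0.111), and Psmb8 by 0.05 (adjusted p = 0.893), with intensities of 245, 265, 294 and 299 with PGE2. The Psme2b probe rose by 0.72 (adjusted p = 0.00919). With the r after replicate numbers as a term, an alternative added after seeing the data, Psmb9 passed (0.73, adjusted p = 0.0272), as did Psme2 (0.60, adjusted p = 0.0138) and Psmb6 (0.62, adjusted p = 0.0337). Ube2m (0.85), Usp19 (0.27), Psme4 (-0.69), Ube2l3 (-0.44) and Ube2n (-0.33) then no longer passed (adjusted p from 0.0511 to 0.0672).

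In the core, Psmb2 gave 4029, 4191, 4346 and 4923 in KO and 5669, 6999.9, 7668 and 7966 with PGE2 and rose by 0.69 (adjusted p = 0.00405), and Psmb4 rose by 0.52 (adjusted p = 0.00684). All 7 constitutive beta ring genes had positive log2 changes, with a median of 0.52, and 2 passed. Psmb5, Psmb6 and Psmb7 changed by 0.73, 0.50 and 0.19 (adjusted p = 0.0939, 0.0698 and 0.497). Psmd5, the 19S assembly chaperone, gave 321, 371, 395 and 513 in KO and 188, 203, 225 and 268 with PGE2 and fell by 0.85 (adjusted p = 0.00842). Psme4 fell by 0.69 (adjusted p = 0.0311), a call that did not pass without any one of PGE2 replicates 23r and 24r and KO replicates 7, 11 and 8 (adjusted p up to 0.103). Psmd10 rose by 0.36 (adjusted p = 0.0285), with overlap between the groups, and 1 of its probes gave -0.10.

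Of the E2 enzymes 1 rose and 6 fell with PGE2 (50%), against 15% and 16.9% of other named genes (32%). Ube2m, the E2 that carries NEDD8 to cullin ligases, gave 349, 422, 438 and 588 in KO and 716, 871, 907 and 1089 with PGE2 and rose by 1.01 (adjusted p = 0.0227), a call lost when PGE2 replicate 23r or 24r or KO replicate 7, 11 or 8 was left out (adjusted p up to 0.0842). In WT it gave 512, 529, 1215 and 1323, where replicates 4 and 2 were the high pair. Ube2e3 fell by 0.63 (adjusted p = 0.00698) and Ube2g1, with overlap between the groups, by 0.73 (adjusted p = 0.047). The smaller falls of Ube2q2 (-0.46), Ube2b (-0.43), Ube2l3 (-0.43) and Ube2n (-0.31) were lost in 7 of 13, 6 of 13, 9 of 13 and 10 of 13 alternatives. The second Ube2q2 probe changed by 0.03 (adjusted p = 0.946), and that of Ube2l3 by -0.64 (adjusted p = 0.0215). Among the deubiquitinases Usp8 gave 374, 445, 467 and 727 in KO and 170.2, 175, 227 and 237 with PGE2, without overlap, and fell by 1.28 (adjusted p = 0.00165), with -1.0 on its second probe (adjusted p = 0.00107). Against WT on day 3, where Usp8 gave 221, 239, 330.5 and 440.1, KO differed by 0.72 (adjusted p = 0.0883) and by 0.60 on the second probe (adjusted p = 0.0489), whereas on day 1 KO was below WT. Usp28 fell by 0.37 (adjusted p = 0.0103) and Usp19, anchored at the endoplasmic reticulum, rose by 0.30 (adjusted p = 0.0237), the latter lost without PGE2 replicate 21r or 24r or KO replicate 11 or 12r (adjusted p up to 0.0873). The neutrophil and stromal sums, given above, were highest in this PGE2 group among the day 3 groups.

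**Figure D4:**
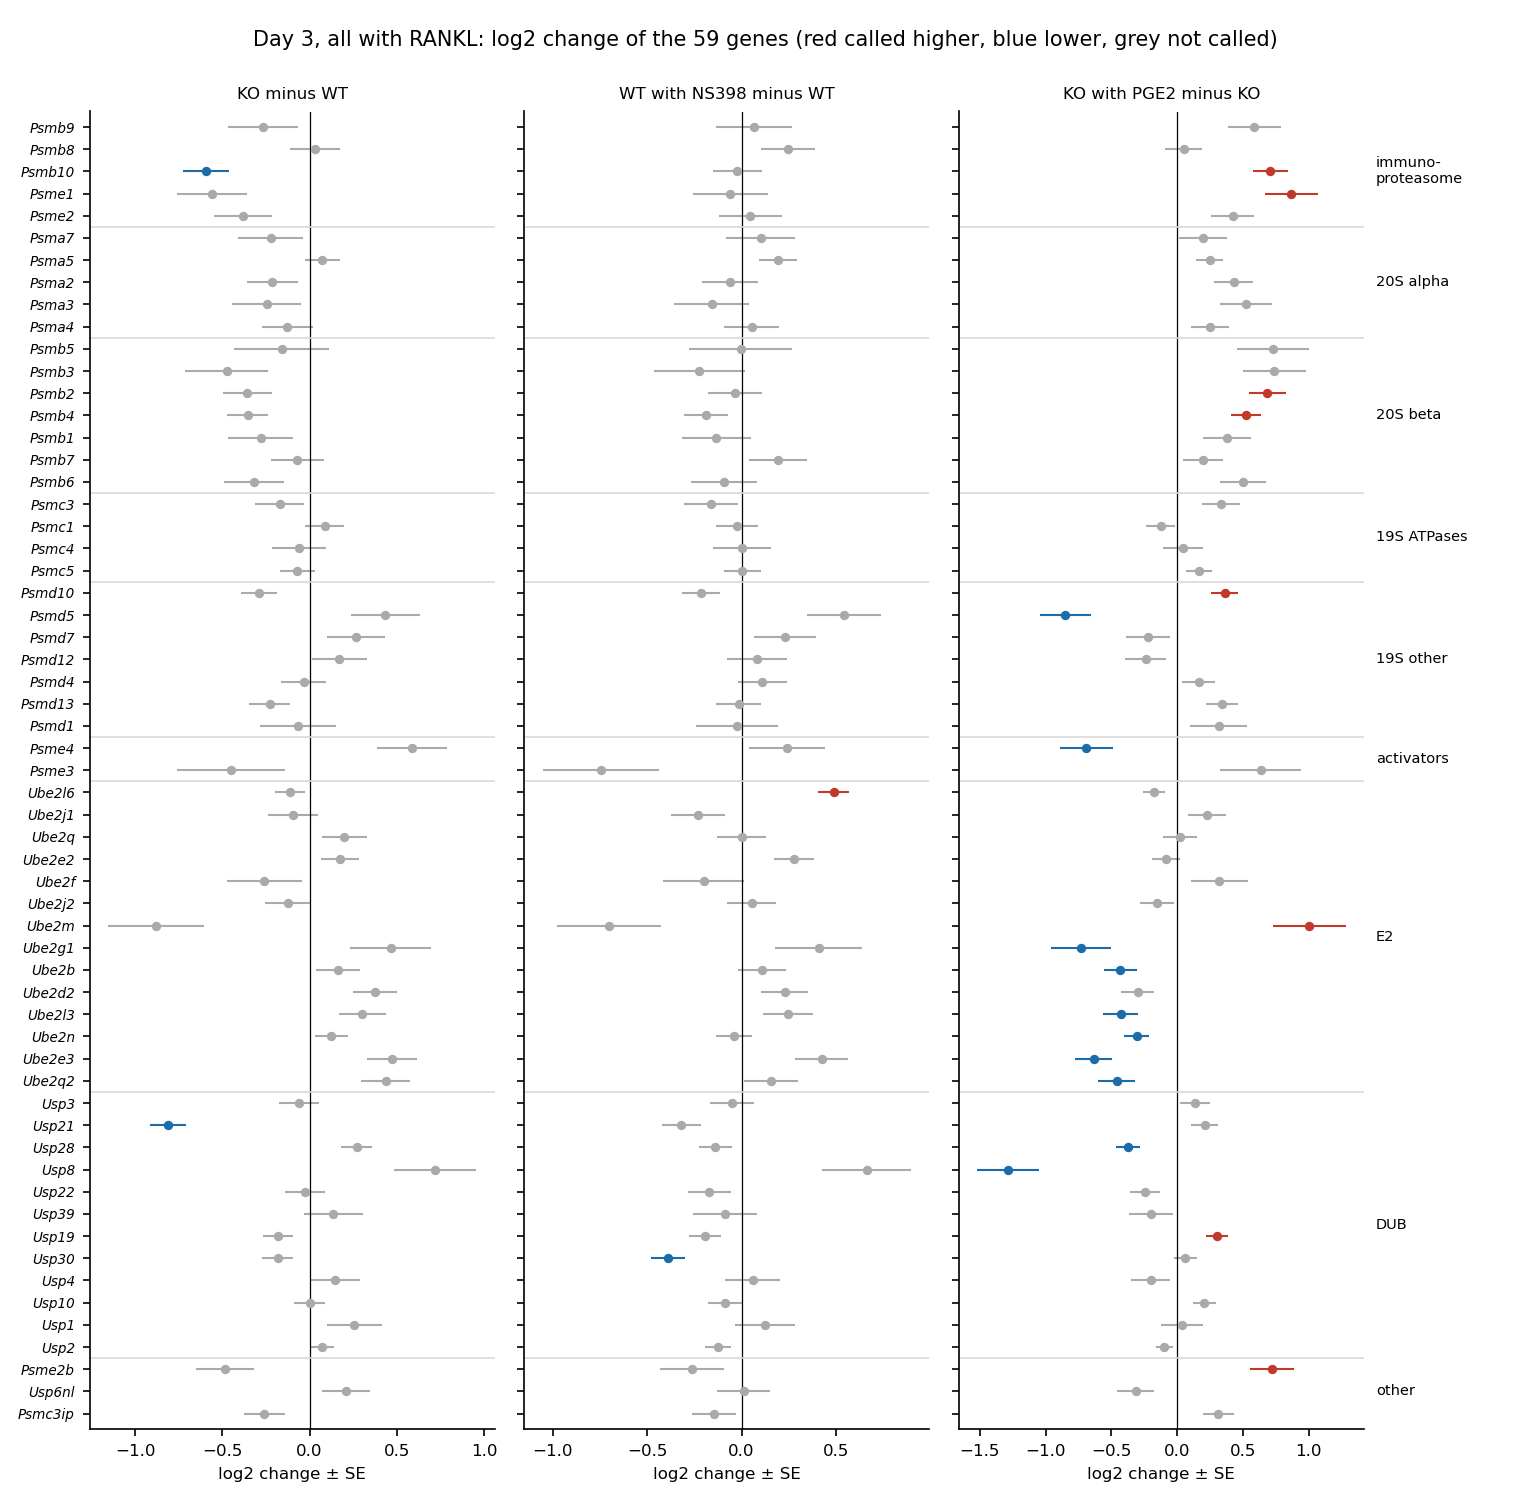
Log2 change ± SE of the 59 genes in 3 comparisons of day 3, all with RANKL, grouped by role; red was called higher, blue lower and grey not called, and the horizontal scales differ between panels. KO against WT has 2 called genes, NS398 against WT 2, and PGE2 in KO 18.

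KO with PGE2 against WT, which sets the treated knockout beside the unaltered cells, called 0 genes higher and 1 lower, against 1.81% and 1.32% of other named genes (3.12% in either direction) and 0.643% and 0.554% of all probes (1.2%). At an unadjusted p under 0.05, 3 were higher and 6 lower. The gene called lower was Usp21, which gave 270.5, 327, 353 and 413 in WT and 217, 218, 226 and 227 in KO with PGE2 and differed by -0.60 (adjusted p = 0.0059). Between KO with and without PGE2 it differed by 0.21 (adjusted p = 0.215), although the arrays did not overlap. The immunoproteasome genes differed from WT by 0.04 for Psme2 (95% interval -0.31 to 0.39) to 0.32 for Psmb9 (-0.10 to 0.75), with 0.12 for Psmb10 (-0.16 to 0.39). Most KO arrays with PGE2 and no WT array carry the r after the replicate number. With this r as a term, the differences were 0.31 for Psme2, 0.54 for Psmb9, 0.25 for Psmb10 and 0.35 for Psmb8. Psme1 went from 0.31 to 0.22, and none of these was called (limma, adjusted p from 0.216 to 0.778). The 5 comparisons of day 3 share arrays, so their values stand side by side and not as separate evidence.

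**Figure D5:**
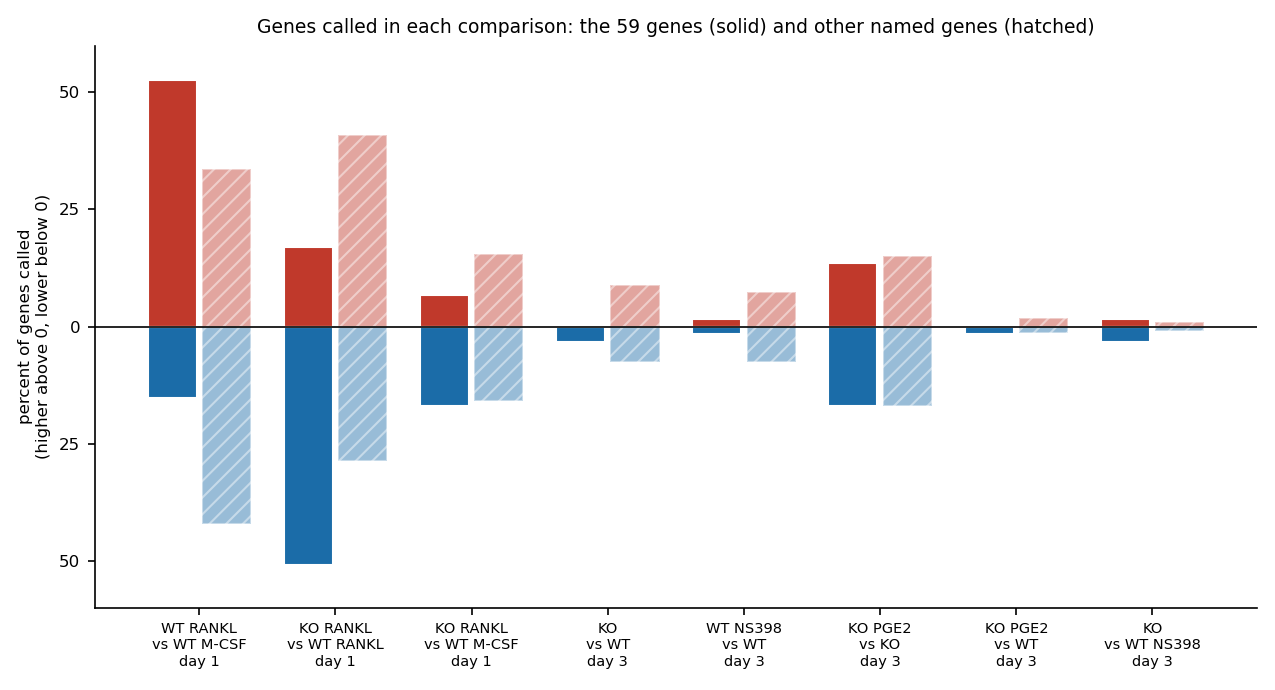
Percent of genes called higher (above 0) and lower (below 0) in 8 comparisons, for the 59 genes (solid bars) and other named genes (hatched bars). With RANKL on day 1 the 59 genes were called higher in 31 cases and lower in 9, and in KO against WT higher in 10 and lower in 30; from day 3 only PGE2 in KO has over 3 called.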

How the data were processed

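Intensity values on a linear scale were deposited by the authors for 26 Illumina bead arrays. They have the same quantiles within an experiment and other ones between experiments, so they are taken as quantile normalised within each, without background subtraction. The submitters' processing notes name GenomeStudio and give no version of it. The authors' deposited tables also give a group mean intensity, a detection p-value, a ratio and a differential score, as read from the file headers, for each probe they list. These tables alone pair probes with symbols. Of the 59 symbols 57 are current in RefSeq GRCm38.p6 and 2 were updated.

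Values were taken to log2, and the planned floor of 32 changed 0 values. A probe was kept when at least 3 arrays (experiment 1) or 4 (experiment 2) had it over their 40th percentile, which left 17211 and 18961 probes. All 59 genes passed, and such a filter can keep a gene through the group where it is high. With limma 3.58.1 in R 4.3.3, lmFit and eBayes were run once per experiment, with 1 mean per group, two-sided, with Benjamini-Hochberg adjustment over all probes, and called at an adjusted p under 0.05. Genes with several probes (16) were read on the probe with the highest mean. Intervals are 95% and from the same fit.

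Named genes were, per comparison, up to 10 called members with the largest rise and 10 with the largest fall and no overlap between groups, and always the 5 immunoproteasome genes, Psmb5, Psmb6 and Psmb7. The members, gene lists, motifs and tests were chosen with earlier results of these data known. Of the 8 comparisons 5 are stated by the series and 3 were added. Alternatives were no filter, cyclic loess, array weights, the lowest-mean probe, each array left out and, chosen after seeing the data, normexp background correction with an offset of 50 and, on day 3, the letter r after some replicate numbers as a term. Where the text counts alternatives in which a call was lost, the lowest-mean probe is not among them. The fit was tested on simulated data.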

Additional observations from a re-analysis of the deposited data

Results flagged for a closer look

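In each group of 4 arrays the gap of the highest or lowest array to its neighbour was divided by the range of the group and compared with Dixon's 95% critical value for 4 samples, for every named gene. Of 195 groups 11 passed it, and chance passes about 1 in 20. In WT with M-CSF on day 1, replicate 6 was low for Psmb5, at 612 against 1106 to 1121 (ratio 0.971), and for Psme2, at 1361 against 1685 to 1699 (ratio 0.956). In the same group replicate 2 was high for Psme2b, at 2429.6 against 1818 to 1917 (ratio 0.839), and for Usp10, at 595 against 435 to 449 (ratio 0.914). In KO on day 3, replicate 12r was low for Psma7, at 2025 against 2652 to 2748 (ratio 0.867), and high for Ube2f, at 3945 against 2104 to 2253 (ratio 0.919). In that group replicate 11 was high for Psmb10, at 2033 against 1814 to 1850.4 (ratio 0.834), and low for Ube2q2, at 579.8 against 706 to 711 (ratio 0.96). In WT on day 3, replicate 3 was high for Ube2e3, at 428 against 284 to 308 (ratio 0.832), and for Ube2j2, at 335 against 224 to 227 (ratio 0.976). In WT with NS398, replicate 16r was high for Psme3, at 1638 against 854 to 953 (ratio 0.874). No gene of the set had KO and WT arrays apart in opposite directions on day 1 and day 3.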

How the results depend on the processing

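Counts of called genes on day 1 with RANKL in WT stayed within 1.5 times of 31 higher and 9 lower under every alternative run. In KO against WT on day 1 the 10 higher became 6 with cyclic loess and 6 to 11 with 1 array left out, and the 4 higher in KO with RANKL against M-CSF became 2 with normexp and 1 to 4 with 1 array left out. For KO on day 3 (0 higher, 2 lower) array weights gave 5 and 7, the r mark as a term 5 lower, the lowest-mean probe per gene 1 and 1, and leaving out 1 array 0 to 3 and 2 to 5, the extremes without WT replicate 3. For NS398 (1 and 1) array weights gave 3 and 4, the r mark as a term 2 lower, and leaving out 1 array 1 to 4 and 0 to 2. For PGE2 in KO (8 and 10) array weights gave 14 higher, the lowest-mean probe 5 higher and no filter 6 lower, and leaving out 1 array 5 to 12 higher and 4 to 10 lower. KO with PGE2 against WT gave 1 to 2 lower with 1 array left out, and KO against NS398 gave 0 higher with normexp, and 0 to 1 higher and 1 to 3 lower with 1 array left out. The cause of these shifts was not tested. No log2 change of a named gene reversed where it was called, as long as the probe was kept. On the lowest-mean probe some changed sign without a call. Examples are Usp1 in KO against WT on day 1, from 0.76 to -0.29, and Ube2q2 with PGE2 in KO, from -0.46 to 0.03. The calls of the 5 immunoproteasome genes on day 1, of Psmb10 and Usp21 in KO on day 3, and of Psmb10 and Psme1 with PGE2 were kept on their brightest probe under every alternative run. Over named genes 6 calls were lost with cyclic loess, 8 without the filter, 11 with normexp, 0 with array weights (3 gained), 5 with the r mark as a term (4 gained), and 103 with 1 array left out (798 results kept their side of the threshold and 4 gained a call). Cyclic loess moved the median of all probes by less than 0.1 on the log2 scale. Detection p-values exist for listed probes only, and those not detected reached mean intensities of 248 in WT with RANKL on day 1 and 156 on day 3, near which changes are compressed. No paired analysis was possible because the groups compared share fewer than 2 replicate numbers within an experiment.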
